A study of Mus musculus with 15 samples.

Results

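The array used for mouse hemibrain carried 16181 probes for intergenic long noncoding RNA (lincRNA) intervals among its 55681 probes that are not controls. These probes were chosen by their name alone, which gives a chromosome, a start, an end and a letter F or R in place of a transcript accession. They covered 3540 intervals, or 4607 combinations of interval and letter, called interval strands here, with 1 to 10 probes each. Intervals overlapped one another and merged into 2223 separate stretches of the mm9 genome build, the build named in the file headers. A probe was taken as detected where the scanner software marked it well above background in the hemibrain channel on at least 5 of the 15 arrays, and 4071 interval probes (25.2%) met this. What the letter F or R stands for is not given in the sources used here, so it is printed as it is and not read as a strand of transcription.

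LincRNAs are transcribed, often spliced and polyadenylated RNAs that encode no known protein and lie between protein-coding genes. Many are present at low levels and in few cell types, and the brain is among the tissues with the largest repertoires of them. Some act on chromatin or on neighbouring genes, some build nuclear bodies, and some are hosts of microRNAs or small nucleolar RNAs. Intervals of this kind can be drawn from chromatin marks of active transcription outside known genes. Such an interval can be wider than the transcript in it. How the intervals of this array were drawn is not given in the sources used here.

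Male C57BL/6j mice were put at 3 weeks of age on 1 of 3 diets for 24 weeks, and total RNA of the hemibrain was profiled with 5 arrays per diet. The diets were designed with equal calories and differed in how much n-3 fatty acid they held for each part of n-6 fatty acid. ERD, the enriched diet, had an n-3:n-6 ratio of 7:1, BLD, which was balanced, one of 1:1, and STD, the standard laboratory chow, one of 1:6. Every array held hemibrain RNA in Cy5 and the same commercial reference, a pool of RNA from 11 mouse cell lines, in Cy3, so each value is a log2 ratio of hemibrain to that pool and a dye effect could not be estimated. The hemibrain is a mixture of many regions and cell types, and the pool stands for cultured, dividing cells rather than for another tissue. Well above background in Cy5 were 17720 spots (ERD 1) to 31991 spots (BLD 4) per array. The tissue label was checked with marker genes: 6 of 6 neuronal, 4 of 4 astrocyte and 4 of 4 oligodendrocyte genes were at least 2-fold above the pool, while 1 of 4 microglial and 2 of 3 endothelial genes were. Below it by at least 2-fold were 3 of 3 tested genes of proliferating cells. Markers of tissue that can come with a hemibrain were also at least 2-fold above the pool, 3 of 3 for blood, 2 of 3 for choroid plexus and 1 of 1 tested for pituitary, and their part in the results was not tested. The arrays lay on 8 slides scanned on 2 days, and the second day held ERD 4, BLD 2, BLD 3 and BLD 4 but 0 STD arrays.

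Interval probes were detected less often than the rest of the array. Of the 39500 other probes 56.4% were detected in hemibrain, and of the 27656 probes with a gene symbol 63.5%, against 25.2% of the interval probes. On 0 of 15 arrays were 8642 interval probes (53.4%) well above background, and on all 15 were 1085 (6.71%), where the other probes gave 30.3% and 34.7%. A probe below background has only a bound, and the depth of an array cannot tell an absent RNA from a faint one. In bulk RNA, fewer cells of a type and less RNA per cell cannot be told apart either.

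The number of interval probes detected varied more between arrays than between diets. It was 1517 on ERD 1, 3948 on ERD 2, 2761 on ERD 3, 4160 on ERD 4 and 3127 on ERD 5. On the BLD arrays it was 2302, 4055, 4766, 5164 and 3609, and on the STD arrays 3634, 4142, 3307, 3384 and 2964, each in order of replicate. The 3 ranges overlapped, with means of 3103 ± 1056 in ERD, 3979 ± 1116 in BLD and 3486 ± 437.9 in STD (SD, n = 5 each). The 4 arrays of the second scan day gave 4055 to 5164 and the 11 of the first day 1517 to 4142, and within the first day the ERD, BLD and STD ranges were 1517 to 3948, 2302 to 3609 and 2964 to 4142. ERD 1, the lowest array for interval probes at 9.38%, was also the lowest for other probes at 36.6%, and BLD 4 was the highest for both, at 31.9% and 61.4%.

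**Figure D1:**
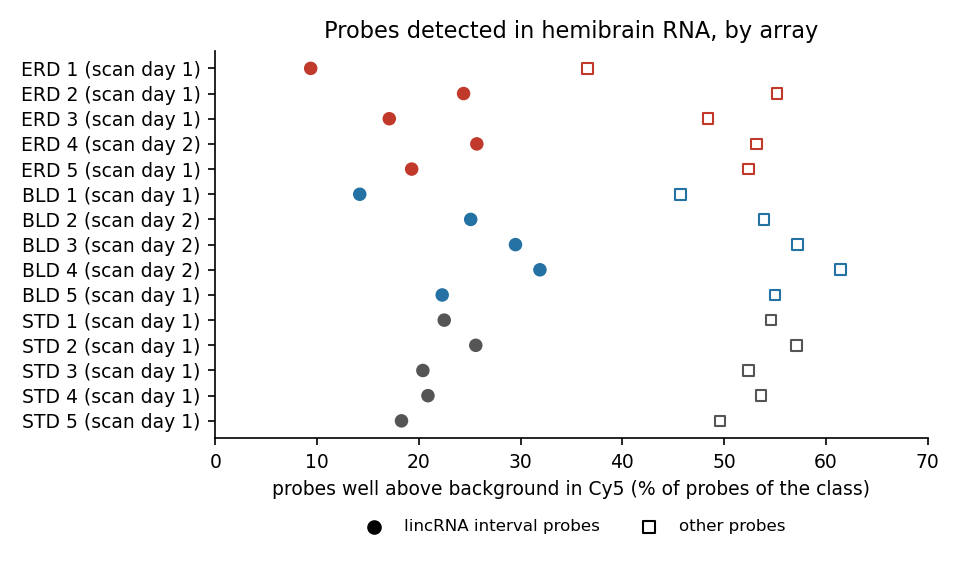
Share of interval probes (filled circles) and of other probes (open squares) well above background in Cy5 on each of the 15 arrays, in percent, coloured by diet, with the scan day in the label. Interval probes ran from 9.38% (ERD 1) to 31.9% (BLD 4), left of the other probes on every array, and the 3 diets overlapped.

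In the reference channel more interval probes were detected, 6093 (37.7%), of which 3672 were also detected in hemibrain. A further 2421 passed in the reference and not in hemibrain, and 399 passed in hemibrain and not in the reference. Among other probes the reference also led, with 63.4% against 56.4%. The Cy3 and Cy5 channels differ in brightness and background, so the counts describe what each channel could measure.

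The letters gave like shares, 24.3% of 8171 F probes and 26% of 8010 R probes. Detection did not rise or fall steadily with interval length. In 4 classes of about equal numbers of interval strands, from 62 to 1758 bp up to 25890 to 7128487 bp, the detected share lay between 23.9% and 26.3%. By chromosome it ran from 17.4% on chromosome 9 (128 of 736 probes) to 30.7% on chromosome 5 (297 of 967), with 30.4% on chromosome 19, 29.9% on 16 and 25.6% on X. Probes with a gene symbol ran from 53.7% on X to 71.3% on chromosome 15, and the order of chromosomes was not shared: across the 20 chromosomes the Pearson correlation of the 2 shares was -0.199, a description of values that come from the same 15 arrays.

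**Figure D2:**
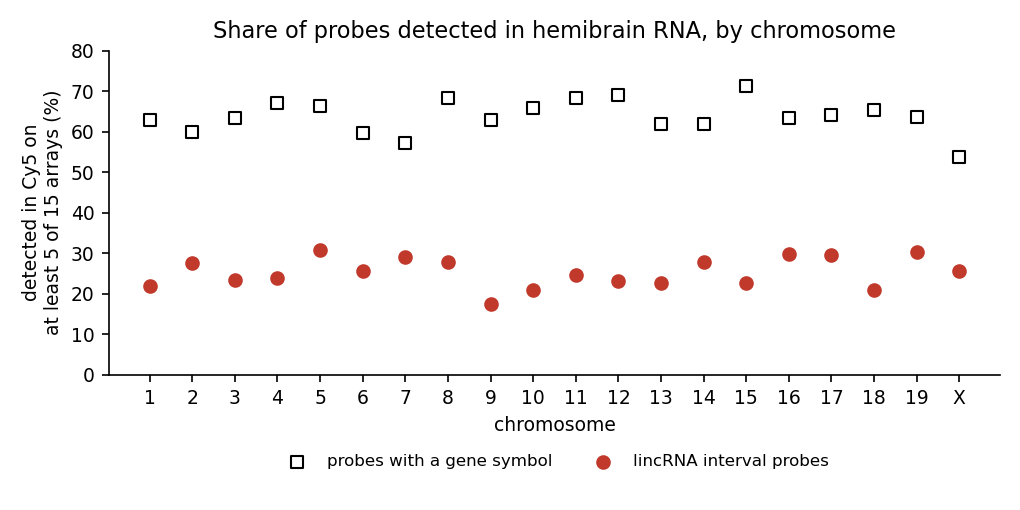
Share of lincRNA interval probes (red circles) and of probes with a gene symbol (open squares) detected in hemibrain on at least 5 of 15 arrays, in percent, for the 19 autosomes and X. Interval probes lie between 17.4% and 30.7% and gene probes between 53.7% and 71.3%, with no overlap of the 2 bands.

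Probes of the same interval strand often read close together, as far as they were measured. At least 1 probe was detected in 2203 of the 4607 interval strands (47.8%), every probe in 557 (12.1%) and none in 2404 (52.2%). Among the 999 with at least 2 probes tested, the median SD of the hemibrain-to-reference log2 ratio within a strand was 0.20, against an SD of 0.77 over all tested interval probes. The former is a median over strands and the latter a single SD, so the 2 are not like measures. In the 522 interval strands with at least 3 tested probes, the highest and lowest ratio lay 0.47 apart at the median. In 402 of these strands (77%) every ratio lay on 1 side of 0, above it in 309 and below it in 93. Of all tested interval probes 74.3% lay above 0, so this share is not by itself a sign that probes of a strand agree. Probes of a strand share the interval and may share a transcript, so they are repeated readings and not replicates of a condition.

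The 2 letters of an interval often differed in detection, and less often in the side of 0 on which their ratios lay. Of the 1067 intervals with F and R probes, both letters had a detected probe in 352 (33%), F alone in 216, R alone in 250 and neither in 249. Over those 352 the mean ratios of the letters correlated weakly (Pearson r 0.203, Spearman rho 0.201, a description over intervals that share 15 arrays), with a median absolute difference of 0.34 on the log2 scale. Both letters lay above 0 in 249 of the 352 and below 0 in 27, and in 76 they lay on opposite sides. In 54 the letters differed by at least 1, that is 2-fold. The interval chr1:42689799-42749799 shows such a difference: its 3 tested R probes had ratios of 3.27 to 5.45, and its 2 tested F probes 0.35 to 1.14.

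Against the reference, most detected interval probes stood near 0. Of the 4071 tested, 389 were at least 2-fold higher in hemibrain and 182 at least 2-fold lower (limma, Benjamini-Hochberg adjusted p under 0.05), or 9.56% and 4.47%, where all 26343 probes tested gave 16.7% higher and 13.6% lower. At this 2-fold cut and with the main processing, interval probes were thus called less often than the array as a whole in both directions. Under other background corrections and scalings only interval probes were counted, so the comparison with the array is not given there. The median log2 ratio of the interval probes was 0.19 and their SD 0.77, against a median of 0.12 and an SD of 1.28 over all tested probes. The requirement of detection in hemibrain favours probes that are high there, and with detection in either channel 6492 interval probes gave 389 higher, 215 lower and a median of 0.02. The normexp offset draws the ratios of faint probes towards 0, so these folds are smaller than the underlying ones.

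The balance of higher against lower calls rested on how each array was scaled. Of the calls, 68.1% were higher in hemibrain under loess, which fits the dye difference along signal strength, and 67.2% with the log ratios of the scanner software (1256 higher and 614 lower). Among probes detected on all 15 arrays the share was 78.4%. With each array centred on its median in place of loess, 92 were higher and 1180 lower, 7.23% higher, and the median of all tested probes moved from 0.12 to -1.31. Each of the 16 probes of highest and lowest ratio named next kept its direction under the 25 or 26 alternatives run for it, median centring among them.

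**Figure D3:**
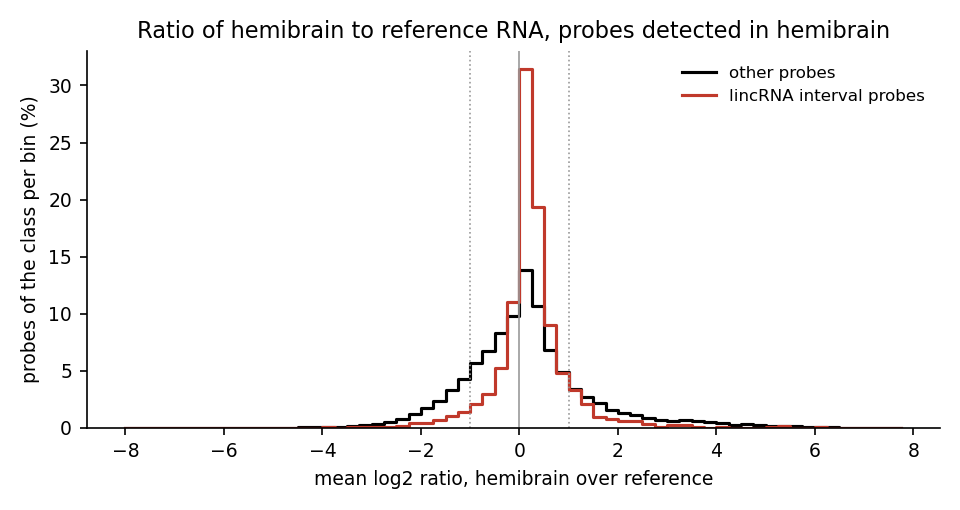
Distribution of the mean log2 ratio of hemibrain to reference over 15 arrays for the 4071 detected interval probes (red) and the other detected probes (black), as percent of each class per bin; dotted lines mark 2-fold. Interval probes are gathered closer to 0, with an SD of 0.77 against 1.28 over all detected probes.

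Among probes measured in both channels on at least 12 arrays, the highest ratio belonged to A_30_P01030648 of chr1:42689799-42749799 R. Its log2 ratio was 4.66 at the lowest array, 5.24 at the median and 6.25 at the highest, a 40.9-fold excess in hemibrain (mean 5.35 ± 0.49, SD, n = 15, limma adjusted p 2.37e-16). Every array of every diet lay far above 0. A_30_P01027400 of chr12:110842154-110883594 F followed with 2.01, 4.32 and 5.03 at the lowest, median and highest array, 16.7-fold on average, while the second F probe of that interval averaged 0.92. Distal chromosome 12 carries the imprinted Dlk1-Dio3 domain, with maternally expressed noncoding RNAs such as Meg3, Rian and Mirg that are abundant in neurons; no mm9 gene annotation was used here, so the interval was not assigned to one of them.

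A pair of overlapping intervals on chromosome 3 gave 3 of the 8 highest probes. In chr3:146629425-146649125 F all 4 probes of the array were tested and read 2.46 to 3.42, and in chr3:146645022-146646977 F all 3 read 3.02 to 3.41. The single tested R probe of the wider interval read 0.66. For A_30_P01033574 the arrays ran from 2.90 to 3.76 with a median of 3.41, the narrowest spread of the 8 (SD 0.25). A_30_P01032660 of chr5:112205091-112240992 F averaged 3.38, while the other 4 F probes of its interval were not tested and its 3 tested R probes read 0.14 to 0.49. A_30_P01024653 of chr16:40471828-40472481 F averaged 3.35, with its 3 probes at 2.15 to 3.35, and A_30_P01033668 of chr11:49933305-49934805 F averaged 3.34, with the second probe of that interval at 0.83.

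A further 19 probes had ratios above the lowest of these 8 but were well above background in the reference on fewer than 12 arrays, and 1 of them lies on chromosome 18. Of these, 3 were singled out after their values were seen. The first was A_30_P01025310 of chr2:108456668-108532418 R, at 3.38, 6.01 and 8.32 (lowest, median and highest array), with reference signal on 3 of 15 arrays. A_30_P01022017 of chr6:90745692-90777977 R stood at 3.39, 5.61 and 7.25, with reference signal on 8 arrays, and A_30_P01024801 of chr5:52998788-53010250 R at 2.45, 5.43 and 7.97, with reference signal on 5. Where the reference was not above background these ratios rest on a bound, so neither their size nor their spread over arrays is a measurement. For all 3 the lowest value was on ERD 1, the array with the fewest detected probes, and the highest on BLD 2 or BLD 4; the part of detection in this was not tested.

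Among probes measured in both channels on at least 12 arrays, lowest in hemibrain were A_30_P01024163 of chr1:175705225-175717250 R and A_30_P01018861 of chr2:152172745-152184745 R. The former lay at -4.45, -3.90 and -3.17 (lowest, median and highest array) and the latter at -4.72, -3.88 and -3.37, so the reference exceeded hemibrain 14.7-fold and 14.6-fold. All 3 tested probes of the chromosome 1 interval read -3.87 to -2.48, and its remaining 2 R probes were detected in the reference on every array and in hemibrain on 0. The neighbouring chr1:175654606-175672031 had 5 of 5 R probes and 4 of 5 F probes detected in the reference and 0 of 10 in hemibrain.

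The interval chr6:83541250-83560425 F supplied 2 of the 8 lowest probes measured in both channels, A_30_P01025992 at a mean of -3.48 and A_30_P01033455 at -3.19, and its 5 probes all read between -3.48 and -1.85. In chr9:14460976-14488051 F, led by A_30_P01020075 at -3.44, the 5 probes read -3.44 to -1.63. A_30_P01022237 of chr17:35080914-35090009 R stood at -3.02 while the 4 tested probes of that strand reached up to 0.07, so the interval did not read as a unit. The remaining low probes were A_30_P01028956 of chr1:193815525-193825775 F at -2.96, beside a tested R probe at 0.02, and A_30_P01027839 of chr12:52950465-52950990 R at -2.80, the only tested probe of 3. A further 3 probes, singled out after their values were seen, had ratios below the highest of these 8 but were well above background in hemibrain on 8 to 10 arrays, so their hemibrain level is in part a bound. A_30_P01019583 of chr5:23195569-23218551 R had a median over arrays of -3.57, A_30_P01019123 of chr17:95150800-95180650 F one of -3.14, and A_30_P01028673 of the chromosome 9 interval one of -2.94. The 389 higher probes fell in 219 merged stretches of the genome and the 182 lower ones in 89.

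In 31 interval strands with at least 3 probes, every probe of the array was called higher in hemibrain, and in 10 every probe was called lower. Those with 5 of 5 were picked out after their values were seen. Higher were chr14:78214602-78225827 R (ratios 1.75 to 1.99), chr16:34524589-34573439 R (1.07 to 2.70) and chr4:124127144-124334840 R (1.30 to 2.72). Lower, beside the 2 intervals on chromosomes 6 and 9, was chr8:27912000-27992750 F (-1.98 to -1.12).

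Some probes were measured in 1 channel only, also in intervals with other probes measured in both. Well above background in Cy5 on all 15 arrays and in Cy3 on 0 were 8 probes of 5 interval strands, and the reverse held for 82 probes of 60 interval strands. For such a probe the fold is a lower bound, set against the faintest signal counted as well above background on each array, or against the probe's own signal where that was higher; as single channels these values are open to a dye bias. A_30_P01029943 of chr19:23064968-23069896 F was at least 11.1-fold higher in hemibrain, and its log2 ratios ran from 2.40 to 4.74 over the 15 arrays. A second probe of that strand, A_30_P01028632, was at least 4.45-fold higher. On chromosome 16, A_30_P01028174 and A_30_P01020887 of chr16:40267386-40268181 F were at least 4.53-fold and 3.85-fold higher, and A_30_P01033303 of the nearby chr16:40283097-40284822 F at least 3.26-fold. On chromosome 8, A_30_P01027337 of chr8:48480224-48480698 R was at least 2.80-fold higher.

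Seen in the reference alone, A_30_P01022549 and A_30_P01023338 of chr1:175705225-175717250 R were at least 4.65-fold and 4.21-fold lower in hemibrain, and A_30_P01021597 of chr1:175654606-175672031 R at least 4.52-fold. On chromosome 6, A_30_P01021179 of chr6:134879009-134880130 F and A_30_P01020056 of the overlapping chr6:134875724-134931975 F were at least 2.90-fold and 2.77-fold lower. A_30_P01027753 of chr4:88583425-88584070 R was at least 2.75-fold lower, and the 1 tested probe of that strand read -1.33. The 6 probes named in this paragraph were not detected in hemibrain and so have no adjusted p.

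Known lncRNA genes were measured on the same arrays by probes of their own. Of 48 listed by symbol, 23 had a probe and 18 were tested, each gene read by 1 of its probes. Of the 18, 5 were at least 2-fold higher in hemibrain and 5 at least 2-fold lower, where all probes tested gave 16.7% and 13.6%. Higher were Pantr1, a brain RNA transcribed next to Pou3f3, at a log2 ratio of 5.57, Peg13, an imprinted RNA, at 4.29, Mirg, a microRNA host of the Dlk1-Dio3 domain, at 3.58, Mir9-3hg, the host of a miR-9 precursor, at 2.76, and Dlx6os1, antisense to the interneuron gene Dlx6, at 1.18. In the reference Mir9-3hg and Dlx6os1 were well above background on 0 arrays, so their ratios rest on a bound. Lower were the small nucleolar RNA hosts Snhg1 and Snhg3 at -2.44 and -1.04, Malat1 of nuclear speckles at -1.79, Neat1 of paraspeckles at -1.39, and Pvt1, the neighbour of Myc, at -1.26. None of the 18 was called between diets, with 2, 4 and 1 of them at an unadjusted limma p under 0.05 in ERD against STD, BLD against STD and ERD against BLD. All probes tested gave 14.5%, 10.3% and 10.6% there.

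ERD was set against STD to find hemibrain RNAs that differ with n-3 enrichment of the chow. Of the 4071 interval probes tested, 2 were called (limma, adjusted p under 0.05), 1 higher and 1 lower in ERD, against 0.209% of all probes tested (55 of 26343), which is the background for this comparison. At an unadjusted p under 0.05 stood 383 (9.41%), under the 14.5% of all probes, and for 146 every array of 1 diet lay above every array of the other (3.59%, against 3.77%). None of these shares was above that of the array at large.

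The lower one was A_30_P01032963 of chr12:110845020-110850870 R, an interval that lies inside the chromosome 12 interval with the 16.7-fold hemibrain excess. Its log2 ratio to the reference was 0.08, 0.12, 0.48, 0.14 and 0.14 on ERD 1 to 5, and 2.18, 2.41, 1.57, 1.57 and 1.90 on STD 1 to 5. On BLD 1 to 5 it was 2.16, 0.87, -0.02, 1.98 and 0.86. The ERD arrays lay together near 0, below every STD array, and the BLD arrays covered both ranges. The difference of ERD from STD was -1.73 ± 0.32 (SE), 3.32-fold lower (limma adjusted p 0.0490), and that of BLD from STD -0.75 ± 0.32 (adjusted p 0.471). The size of the former depended on the processing, from -0.87 with median centring to -3.75 with the scanner software's log ratios, and its adjusted p ran from 0.0173 to 0.484 over 29 alternatives. In Cy5 the probe was well above background on 1 of 5 ERD arrays and on all BLD and STD arrays, so the ERD level is close to a bound. In Cy3 it was well above background on 5 of 15 arrays, so most of its ratios also rest on a bound in the reference. With Cy5 alone the difference was -1.49 (adjusted p 0.0223), and Cy3 alone differed by 0.25 (adjusted p 0.999). Of the 4 tested probes of this strand 3 were lower in ERD, and their differences ran from -1.73 to 0.18; the 2 tested F probes differed by -0.33 and -0.23.

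The higher one was A_30_P01018056 of chr2:168804720-168854970 R. Its values were 0.88, 0.67, 0.83, 0.73 and 0.93 on ERD 1 to 5, 0.32, 0.46, 0.61, 0.49 and 0.57 on BLD 1 to 5, and -0.01, 0.14, 0.44, 0.30 and 0.38 on STD 1 to 5. ERD lay above every array of both other diets, while BLD and STD overlapped. ERD exceeded STD by 0.56 ± 0.11 (SE), 1.47-fold, with a limma adjusted p of 0.0494. With Cy5 alone the difference was 0.59 with an adjusted p of 0.0879. No other R probe of the interval was tested, and its 2 tested F probes differed by 0.00 and 0.41.

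Both calls stood close to the threshold. Within the 3 slides that held an ERD and an STD array, A_30_P01032963 differed by -2.28, -1.70 and -1.43 and A_30_P01018056 by 0.53, 0.83 and 0.63. For both probes all ERD arrays lay on 1 side of all STD arrays, so the direction within a slide was already settled. It adds no support to the calls. With slide as a fixed block the adjusted p was 0.450 for both, and with scan day as a block it was 0.0802 and 0.0789. Both stayed under 0.05 when ERD 3, BLD 1 or BLD 3 was left out. Both calls were lost when any 1 of the other 12 arrays was left out, with adjusted p up to 0.141 and 0.138. Without ERD 3 the comparison called 15 interval probes and without BLD 3 it called 4, without BLD 1 it called 2, without ERD 1 or ERD 5 it called 1, and without any 1 of the other 10 arrays 0.

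The next 4 probes by p did not pass the threshold. A_30_P01029366 of chr14:65205076-65219432 R had values of 1.54, 2.49, 3.33, 2.31 and 2.74 on ERD 1 to 5 and 4.18, 4.24, 4.36, 3.67 and 4.59 on STD 1 to 5. The groups did not overlap, and the difference was -1.73 ± 0.39 (SE, limma adjusted p 0.0849), with BLD between 1.58 and 3.95. A_30_P01018039 of chr16:8738782-8830148 R differed by -1.24 ± 0.28 (adjusted p 0.0849) and A_30_P01017613 of chr14:65431652-65437902 F by -0.87 ± 0.20 (adjusted p 0.0845). The 3 tested probes of the chromosome 16 strand ran from -1.24 to 0.02, and the 4 of the chromosome 14 F strand from -0.87 to -0.15. A_30_P01026790 of chr6:83368261-83407280 R differed by -0.76 ± 0.17 (adjusted p 0.0760), while the other 2 tested probes of its strand differed by 0.10 each. Within the slide that held ERD 5 and STD 4 it differed by 0.03, so its direction did not hold there. For the other 3 probes the ERD and STD arrays did not overlap, which settles the direction within any slide. Under 1 or more alternatives each of these 4 fell under 0.05, with the lowest adjusted p between 0.0342 and 0.0477.

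**Figure D4:**
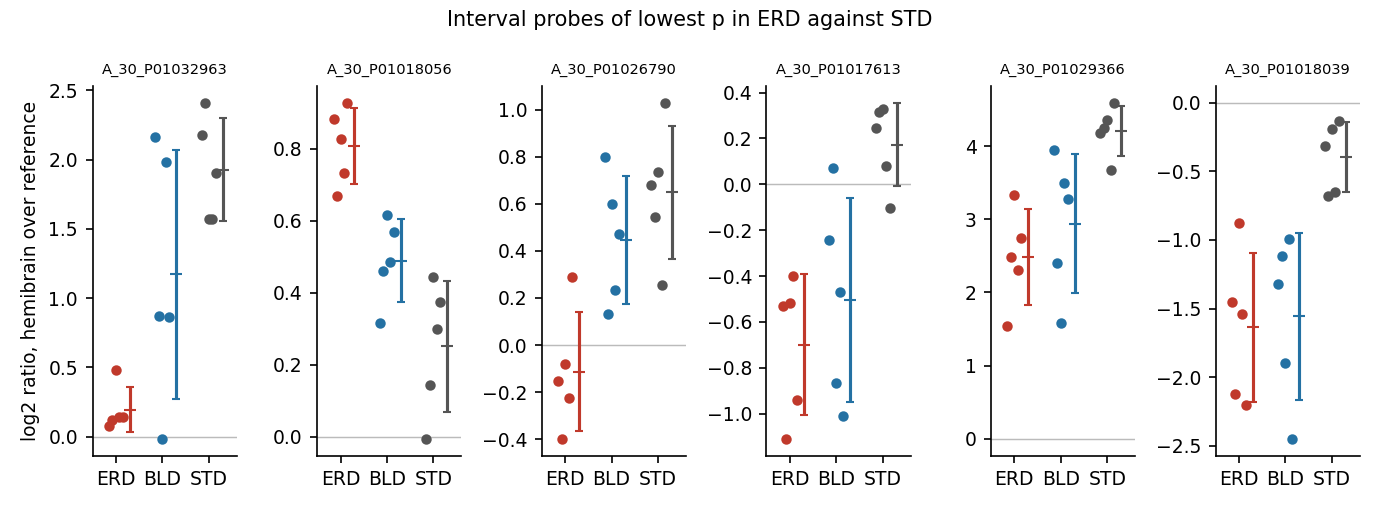
Log2 ratio of hemibrain to reference for the 6 interval probes of lowest p in ERD against STD, 1 panel per probe with its own scale; points are the 5 arrays of each diet and bars the mean ± SD. A_30_P01032963 and A_30_P01018056, at the left, had an adjusted p under 0.05, and in both the 5 ERD arrays lie apart from the 5 STD arrays.

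In BLD against STD, which sets the balanced against the standard diet, 0 interval probes were called by limma, where the background was 0.00759% (2 of 26343 probes). At an unadjusted p under 0.05 were 449 (11%, against 10.3% of all probes), and 106 had arrays that did not overlap (2.6%, against 2.79%). The lowest p belonged to A_30_P01033314 of chr13:70745633-70776516 R, with values of -0.54, -0.56, -0.54, -0.75 and -1.04 on BLD 1 to 5 and -0.29, 0.32, 0.17, 0.30 and 0.34 on STD 1 to 5. Every BLD array lay below every STD array, and the difference was -0.85 ± 0.14 (SE, adjusted p 0.0795). Leaving out STD 1, the array nearest to BLD, gave -0.96 with an adjusted p of 0.0118. That was the lowest of the 15 fits with 1 array left out, whose adjusted p reached 0.311, and the only 1 under 0.05. Over all 29 alternatives the adjusted p of this probe ran from 0.0118 to 0.929. The ERD arrays, at -0.69 to -0.23, overlapped both groups. The next were A_30_P01019468 of chr3:62727150-62758225 F at 0.53, A_30_P01024251 of chr14:26834450-26847000 F at 0.87 and A_30_P01027122 of chr1:193875525-193978800 R at 0.64, each with an adjusted p of 0.191. A_30_P01018039 was lower in BLD too, by -1.16, and A_30_P01028349 of chr15:85412264-85549139 F higher by 0.59, both at 0.234. Their strands had 3 and 6 tested probes, which ran from -1.16 to 0.09 and from -0.06 to 0.59. ERD and BLD are each compared with the same STD arrays, so a low or high STD group moves both differences together.

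In ERD against BLD, which sets the enriched against the balanced diet, 0 interval probes and 0% of all probes tested were called by limma. At an unadjusted p under 0.05 were 336 (8.25%, against 10.6%), and 38 did not overlap (0.933%, against 1.4%). A_30_P01026559 of chr16:40267386-40268181 F, the short chromosome 16 interval whose other 2 probes were measured in hemibrain alone, had values of 0.52, 0.93, 0.36, 0.56 and 1.12 in ERD and 1.69, 1.24, 1.48, 1.89 and 1.61 in BLD, in order of replicate. In the reference this probe was well above background on 1 of 15 arrays, so its ratios too rest largely on a bound. The 2 diets did not overlap, and ERD was lower by 0.88 on the log2 scale (adjusted p 0.224), with the STD arrays at 1.12 to 1.92. The other 2 probes of the interval differed by -0.89 and -0.68, so all 3 of its probes read lower in ERD.

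A_30_P01021398 of chr17:26911397-26917047 F differed between ERD and BLD by -0.62 ± 0.13 (adjusted p 0.224). Its strand had 10 tested probes, of which 10 were lower in ERD than in BLD, between -0.62 and -0.11, and 9 of them had an unadjusted p under 0.05. Within the slide that held ERD 5 and BLD 5 the named probe differed by -0.10, and within the other 2 slides with both diets by -0.57 and -1.08. Of the rest, A_30_P01023348 of chr8:119090566-119097735 R differed by -0.52, A_30_P01017986 of chr1:183783306-183834531 R by -0.65 and A_30_P01028065 of chr8:40100925-40196350 F by -1.11. Their strands had 5, 3 and 5 tested probes, and each of these read lower in ERD than in BLD. Among all 4071 interval probes tested, 2659 were lower in ERD than in BLD. In 207 of 510 interval strands with several tested probes, every probe was lower. The strands named here and the one on chromosome 16 were picked through a probe of low p, so agreement of their probes is no separate support. A_30_P01019772 of chr6:135294099-135300310 R was higher in ERD by 0.73, and it was the only R probe of its interval. A moderated F test over the diets called 0 interval probes (background 0.0456%), with 374 (9.19%, against 13.3%) at an unadjusted p under 0.05. Without ERD 1, BLD 3 or STD 1 it called 1.

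A small common shift accompanied the diet comparisons. The median difference of the interval probes was 0.024 in ERD against STD, 0.076 in BLD against STD and -0.057 in ERD against BLD, beside 0.0097, 0.048 and -0.044 over all probes tested. With the scanner software's log ratios the interval probes' median for ERD against STD turned to -0.044, and without ERD 4 it was -0.00063. Of the interval probes 66.2% were higher in BLD than in STD, against 59.9% of all. The median ratio of an array moved with the scan day: it was 0.25 to 0.30 on the 4 arrays of the second day and 0.05 to 0.21 on the 11 of the first, and within the first day 0.15 to 0.16 on 2 BLD arrays and 0.11 to 0.16 on 5 STD arrays. With scan day as a block the median difference of the interval probes was 0.017 in BLD against STD, down from 0.076, and 0.0066 in ERD against BLD, where it turned sign from -0.057. No chromosome stood far from the rest, with medians of -0.02 to 0.07 for ERD against STD and 0.03 to 0.11 for BLD against STD, and the letters F and R gave 0.03 and 0.02 for the former and 0.09 and 0.07 for the latter.

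Larger differences between arrays were seen in a few intervals, picked after the values were seen and not for agreement of their probes. They are the 12 interval strands with at least 3 tested probes and the widest spread of their mean ratio over the 15 arrays. Across all such strands the median SD over arrays was 0.21. In chr3:151746091-151753763 F the mean of 3 probes was 3.15 on BLD 2, 2.99 on BLD 3, 2.86 on ERD 4 and 2.01 on ERD 2, and between -0.05 and 0.91 on the other 11 arrays. ERD 4, BLD 2 and BLD 3 are the 3 arrays of slide 1. The same 3 arrays were the highest, with ERD 2 next or, in 1 case, below BLD 4, in chr4:149383134-149451259 R (1.78, 1.75 and 1.58), chr14:33895294-33923644 F (2.01, 2.07 and 1.78) and chr7:50509139-50526856 R (1.41, 1.48 and 1.69). In these 4 the STD arrays read between -0.02 and 0.87. The probes of the chromosome 4 strand did not all move together. Its A_30_P01026324 read 0.414, 0.595 and 0.489 on ERD 4, BLD 2 and BLD 3, below 0.801 on BLD 4. In the chromosome 3 strand A_30_P01019918 and A_30_P01021432 were well above background in Cy5 on 0 of 5 STD arrays. In the chromosome 4 strand A_30_P01032379 and A_30_P01029858 were so on 1. Their STD values thus rest on a bound, and their detection came mostly or wholly from ERD and BLD arrays. The other tested probes of both strands were well above background on all 5 STD arrays. Slide 1 held no STD array, and its part in these values was not tested.

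A second set lay on chromosome 17. In chr17:39960567-39992817 the 4 F probes and 5 R probes were all lower in ERD than in STD, by -1.57 to -0.49 for F and -1.47 to -0.52 for R, with 2 and 4 at an unadjusted p under 0.05 and a lowest limma adjusted p of 0.0852. The mean of the R probes was -2.40, -2.25 and -2.39 on ERD 1, 2 and 5 and -0.76 and -0.77 on ERD 3 and 4. On BLD 3 and BLD 5 it was -1.74 and -1.65, and on the other 3 BLD and the 5 STD arrays -0.97 to -0.05. ERD 3 and ERD 4 thus lay within the range of the STD arrays, and the other 3 ERD arrays below it. The intervals chr17:39982023-39983277 F and chr17:39983902-39985688 F, which lie inside it, were also lowest on ERD 1, ERD 2 and BLD 3, at -2.90, -3.08 and -2.60 in the former, where the STD arrays lay between -0.94 and -0.32. Chromosome 17 carries an annotated copy of the mouse ribosomal RNA precursor gene; whether these intervals overlap it was not analysed here.

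On chromosome 19 the mean of 3 probes in chr19:5801802-5802597 R ran from -2.22 (BLD 3) to 1.98 (BLD 1), and the STD arrays alone from -1.71 to 1.66. In chr19:5798135-5800557 R it ran from -1.94 (ERD 2) to 1.09 (STD 4), with the BLD arrays alone at -1.38 to 1.05. In both, single diets covered most of the range over all 15 arrays. In chr17:8718223-8949898 F the lowest arrays were ERD 1 (-0.05), ERD 2 (0.20) and BLD 3 (0.26), against 1.33 to 1.93 in STD, and all 3 probes were lower in ERD than in STD, by -1.27 to -0.64, with a lowest limma adjusted p of 0.113. Last, chr3:146515333-146557069 F lay between 2.19 and 3.58 on 14 arrays and at 0.99 on BLD 3.

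**Figure D5:**
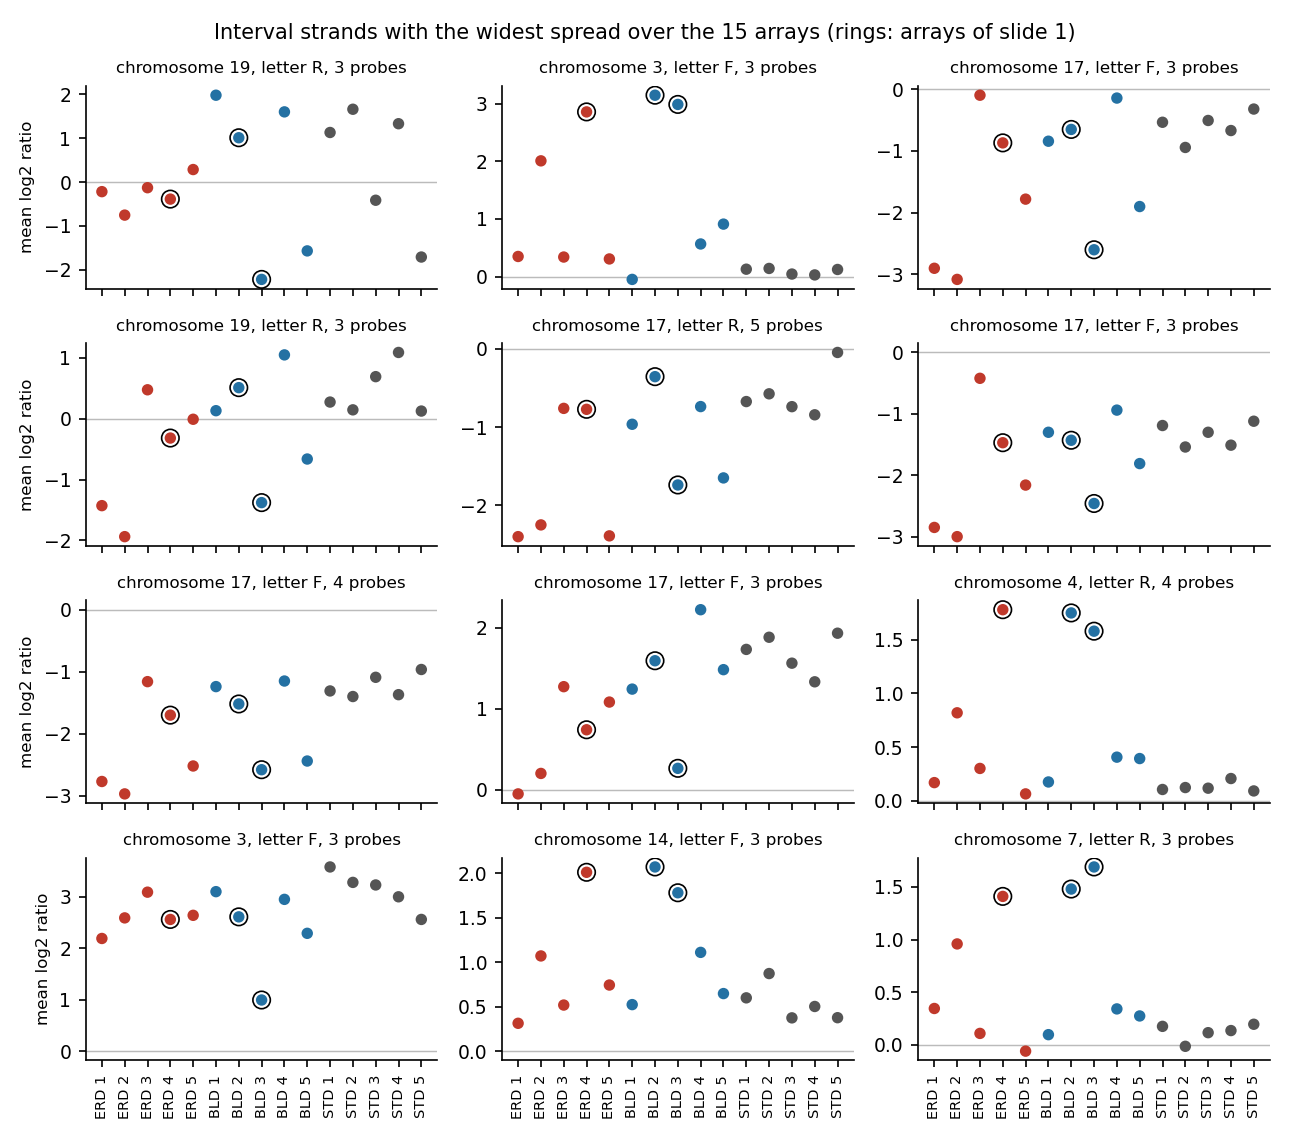
Mean log2 ratio of hemibrain to reference over the tested probes of each of the 12 interval strands with the widest spread, by array, coloured by diet; rings mark the 3 arrays of slide 1, and each panel has its own scale. In the second panel of the top row (chromosome 3) the ringed arrays and ERD 2 lie at 2.01 to 3.15 and the other arrays at -0.05 to 0.91.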

How the data were processed

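Each deposited scanner file gives, per the file headers, the median brightness (intensity) of a spot and of its surroundings in both channels, detection marks of 0 or 1, and the scanner software's log10 ratio of Cy5 over Cy3. The authors' series values are these same log10 ratios. The headers name Agilent Feature Extraction version 11.5.1.1 and the submitters' processing notes version 10.7. Diets came from the sample characteristics, since every title carries the word control. Nothing beyond the numbers in the titles says that hemibrains of a group came from separate litters or cages, so p-values measure the spread between these arrays, which may in part be technical.

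Median intensities were background-corrected (normexp, offset 50), loess-normalized within arrays with controls at weight 0, and averaged over spots of a probe in limma 3.58.1 under R 4.3.3, with data.table in version 1.17.8. Outlier spots (0.574%) were left out. Probes with a Cy5 detection mark on at least 5 arrays and at least 8 values, 26343 in all, entered the fit, in which log2 ratios computed from the deposited intensities were modelled as 3 diet means over 15 arrays (12 residual degrees of freedom). P-values were 2-sided and Benjamini-Hochberg adjusted over all 26343. Called against the reference means adjusted p under 0.05 and a log2 ratio of at least 1 in size. Figures used Python 3.11.15, pandas 2.3.3 and matplotlib 3.10.9. The fit was tested on simulated arrays.

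The members, the lncRNA and marker lists and the rules were chosen with earlier results of these data known. Named were up to 10 called probes per diet comparison, filled to 6 by lowest p, the 5 of lowest p in the F test, the 8 highest and 8 lowest ratios among probes detected in both channels on at least 12 arrays, and up to 6 probes measured in each channel alone, with the other letter of their intervals. Intervals on chromosome 18 were counted and not named one by one. Symbols came from RefSeq accessions matched to GRCm38.p6, and no coordinate was converted from mm9. Results were recomputed under up to 30 alternatives. Slide and scan day came from the headers. With 5 arrays a diet the precision is limited by that number, and the median standard error of a diet difference was 0.15 for interval probes.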

Additional observations from a re-analysis of the deposited data

Results flagged for a closer look

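Among 138 groups of 5 arrays examined for the named probes, 6 held an array far from the other 4, where chance flags about 1 in 20 groups. In A_30_P01032963 the array ERD 3 stood at 0.48 with the other ERD arrays at 0.08 to 0.14. In A_30_P01033314 STD 1 stood at -0.29, below 0.17 to 0.34 on the other STD arrays. Among the probes high in hemibrain, BLD 1 gave 2.26 in A_30_P01032660 (others 3.60 to 3.90), BLD 5 gave 2.68 in A_30_P01033124 (others 3.47 to 3.75) and ERD 1 gave 2.12 in A_30_P01033668 (others 3.19 to 3.48). Among those low in hemibrain, BLD 2 gave -3.17 in A_30_P01024163 (others -4.09 to -3.90). Outside the probes with a letter F or R, 13 probes are named as an interval without one, and 6 of these were detected in hemibrain.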

How the results depend on the processing

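The 2 interval probes called in ERD against STD became 13 with the scanner software's log ratios, 12 with a normexp offset of 1, 6 without background correction, 13 with array weights, 4 with slide as a random block, and 1 with Cy5 alone or with detection in either channel. They became 0 with median centring, detection on all 15 arrays, slide or scan day as a fixed block, and without the 3 least correlated arrays, and 0 to 15 leaving out 1 array. BLD against STD gave 3 with array weights and 0 to 1 leaving out 1 array. The F test gave 6 with array weights, 1 with slide as a random block or no filter on dim probes, and 0 to 1 leaving out 1 array. ERD against BLD gave 0 throughout. Against the reference, 389 higher and 182 lower became 1256 and 614 with the scanner software's log ratios, 1177 and 358 with offset 1, 722 higher without background correction, 92 and 1180 with median centring, 87 lower with detection on all 15 arrays, and 101 and 39 at 4-fold; leaving out 1 array gave 365 to 410 and 172 to 192. The lincRNA interval probes detected in hemibrain, 4071, became 7539 on at least 1 array, 1085 on all 15, 8956 by the positive and significant mark, and 3788 to 4055 leaving out 1 array. Where no value shows it, the cause was not tested. Of 409 pairs of probe and alternative for the 16 probes named by ratio, 409 kept direction and call, and none of the named diet differences changed sign. No paired analysis was possible because the titles' numbers are not shared between diets. The loess curve assumes that most probes do not differ between hemibrain and reference, and signal over background limits the 53.4% of interval probes seen on 0 arrays.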
